A study of Homo sapiens with 18 samples.

Results

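The 10 genes examined are those of lipid droplet and triglyceride storage, chosen by symbol: the coat proteins PLIN2 and PLIN3, the synthesis genes ACSL3, LPIN1, DGAT1 and DGAT2, the lipase PNPLA2 and its partner ABHD5, and the inhibitors HILPDA and G0S2. Of these, 9 were among the 38055 genes of the whole transcriptome table, and G0S2 was not analysed here. The cells were wild-type HCT116, an established human colorectal carcinoma line of epithelial type, grown in multiwell plates and given fresh medium daily from day 2. Day 3 cultures were at 50% confluency and day 5 cultures at 250% confluency, with 3 libraries labelled as biological replicates for each day. Time in culture and density moved together in this design and cannot be told apart, and all cells come from 1 line. Values are the deposited normalized signal, that is, reads counted on a gene divided by a factor for the library.

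Lipid droplets store neutral lipid, mostly triglyceride, behind a coat of proteins, and they fill or empty according to the balance of triglyceride synthesis and lipolysis. Fatty acids are activated to acyl-CoA, joined to a glycerol backbone through phosphatidate and diacylglycerol, and sealed into triglyceride by the DGAT enzymes, while lipolysis begins with ATGL, the product of PNPLA2. ATGL is switched on by its partner ABHD5 and held back by small inhibitor proteins, HILPDA and G0S2. Colorectal cancer cells are known to carry droplets, and HILPDA is a known target of the hypoxia-inducible factors.

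The libraries held between 27470978 and 56689369 recovered reads, with both the deepest and the shallowest among those of day 3, and the 9 genes had between 90 and 12843 reads per library. Epithelial markers matched the label in part: EPCAM, KRT8, KRT18, KRT19, CDH1 and CDX2 were expressed in every library, and VIL1 stayed at or under 5.18. The summed list of 7 went from between 37110 and 55188 on day 3 to between 100343 and 101432 on day 5. Of its 6 tested genes, 5 passed as higher, against 29.3% of all tested genes. Of the adipocyte markers, ADIPOQ, LEP, FABP4 and CIDEC did not exceed 3.51 in any library, and the list of 6 summed to between 140 and 156 on day 3 and between 149 and 198 on day 5, most of it LIPE. Summed leukocyte markers ran from 13.2 to 18.4 and from 22.8 to 32.2, and endothelial ones from 15.6 to 27.2 and from 39.3 to 68.3. The fibroblast list went from between 523 and 596 to between 1112 and 1193, nearly all of it COL1A1, with DCN at or under 4.33. PECAM1 of the endothelial list and LUM of the fibroblast list were not analysed here, so the sums leave them out. Also higher were the 1 leukocyte gene tested, both endothelial genes tested and 1 of 3 tested fibroblast genes. Neither of the 2 tested adipocyte genes passed. The part of these shifts in the results was not tested.

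On day 5, the lipase gene PNPLA2 rose 2.51-fold while the gene of its activating partner, ABHD5, fell 2.29-fold. The inhibitor gene HILPDA rose 2.32-fold, the coat gene PLIN3 2.31-fold, LPIN1 2.60-fold and DGAT1 1.39-fold, and ACSL3 fell 1.24-fold. PLIN2 and DGAT2 did not pass the test. In all, 7 of the 9 genes passed an adjusted p-value of 0.05 (limma on log2 of signal + 1, Benjamini-Hochberg adjustment over all genes tested), 5 of them higher and 2 lower. Among all 20129 genes tested, 56.9% passed, 29.3% higher and 27.6% lower, so most genes differed between the days and a count of 7 in 9 is not far from the background. Changes of at least 2-fold were less common, with 5 of the 9 genes against 17.8% of all tested genes. The median log2 difference was 0.47 over the 9 genes and 0.01 over all tested genes. The genes were chosen with earlier results of these data known, so these counts and this median are not independent of them. In bulk RNA, a change in every cell and a change in the share of cells that express a gene cannot be told apart.

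**Figure D1:**
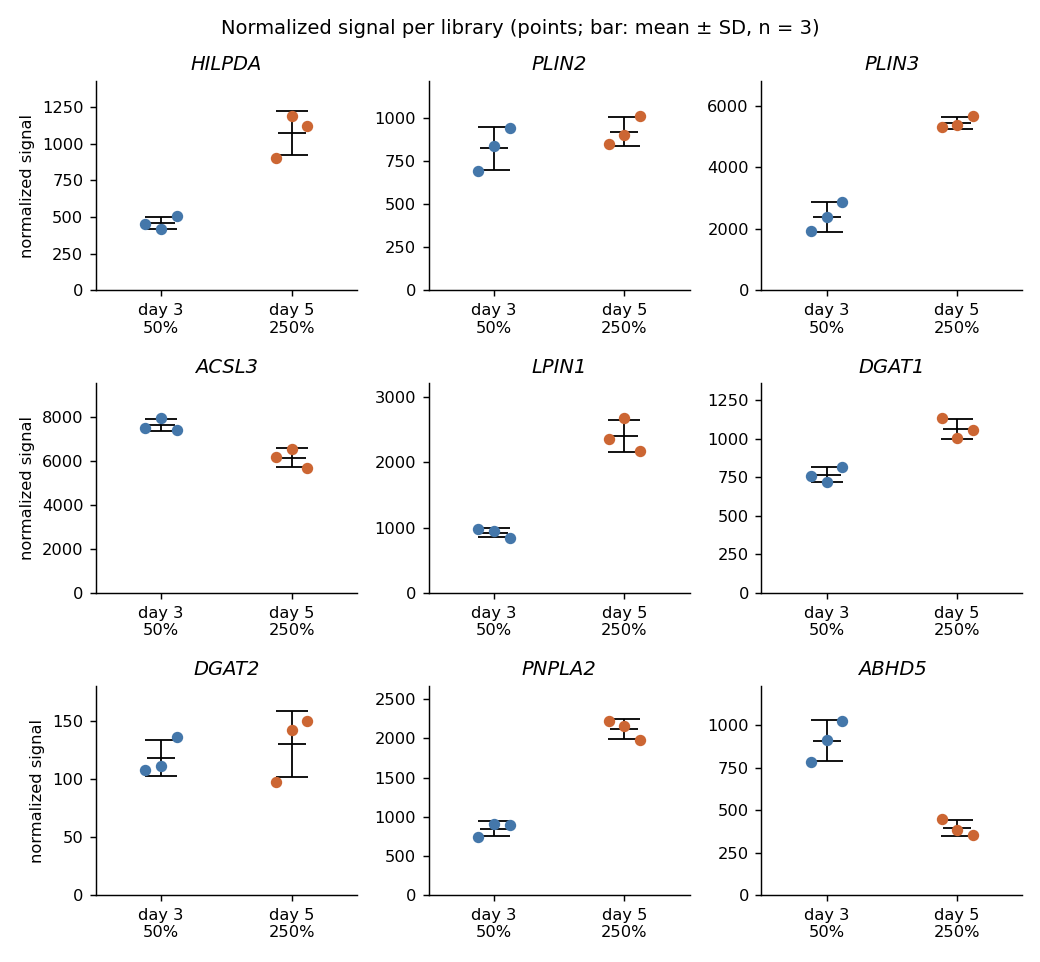
Normalized signal of the 9 genes in each library, with day 3 (50% confluency) in blue and day 5 (250% confluency) in orange; points are libraries, bars are the mean and SD of 3, and every axis starts at 0 with its own scale. The days are apart for 7 genes and overlap for PLIN2 and DGAT2.

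PLIN2 and PLIN3 are related coat proteins. PLIN2 sits on droplets nearly all the time and is commonly used as their marker, and PLIN3 moves between the cytosol and nascent droplets. PLIN3 signal was 1922, 2372 and 2885 in the day 3 libraries and 5300, 5369 and 5672 in those of day 5. Every day 5 library was far above every day 3 library, and the spread was wider on day 3. It differed by 1.21 on the log2 scale (standard error 0.16, adjusted p = 0.0012 from limma).

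For PLIN2, the day 3 libraries gave 693, 836 and 943 and the day 5 libraries 851, 901 and 1012. The days overlapped, since the highest day 3 library lay above the lower pair of day 5. The log2 difference was 0.17 (standard error 0.14, adjusted p = 0.334 from limma), with a 95% interval of the fold from 0.889 to 1.42. A rise of the size seen for PLIN3 lies outside that interval, which holds only small changes in either direction. The PLIN2 signal was 0.361, 0.353 and 0.327 of that of PLIN3 on day 3 and 0.161, 0.168 and 0.178 on day 5. This ratio was taken inside each library, with 1 added to each signal, and so is nearly free of the library's scaling factor. It was 2.05-fold lower on day 5 with no overlap (two-sided exact permutation test, p = 0.1, the smallest that 3 libraries against 3 allow, and 0.167 after adjustment over 5 ratios).

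In GRCh38 (GENCODE release 44), PLIN2 spans chr9:19108375-19149290 and PLIN3 chr19:4838341-4867694, both on the minus strand. Their promoters are shown because the genes have related products and moved differently. Each window runs from 250 bases before to 50 bases after a RefSeq start (GRCh38.p14), and capitals mark the core that hypoxia-inducible factors bind, ACGTG or GCGTG, and the nuclear receptor element AGGTCA, both searched on both strands.
PLIN2, chr9:19127443-19127742, minus strand: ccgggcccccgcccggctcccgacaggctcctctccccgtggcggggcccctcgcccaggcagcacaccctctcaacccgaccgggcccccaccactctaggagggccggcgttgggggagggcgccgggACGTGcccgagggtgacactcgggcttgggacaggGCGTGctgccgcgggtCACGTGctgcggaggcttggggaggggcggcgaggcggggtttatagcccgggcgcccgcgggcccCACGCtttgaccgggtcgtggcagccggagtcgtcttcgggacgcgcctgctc
PLIN3, chr19:4867618-4867917, minus strand: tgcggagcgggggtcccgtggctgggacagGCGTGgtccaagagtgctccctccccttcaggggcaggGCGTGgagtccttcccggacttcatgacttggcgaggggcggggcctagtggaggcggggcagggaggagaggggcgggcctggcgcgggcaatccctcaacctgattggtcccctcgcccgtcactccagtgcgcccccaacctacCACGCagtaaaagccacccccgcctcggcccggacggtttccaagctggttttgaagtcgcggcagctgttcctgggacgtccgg
The PLIN2 window held 5 core matches, of which 2 are the strands of a single CACGTG palindrome, and the PLIN3 window held 3. Such a core was present in 48.4% of the 35116 promoters in the same table and CACGTG in 7.26%, so the first is common. Neither window held AGGTCA, which 13.8% of the promoters had. These are matches of letters, and no binding was measured. Of the 10 genes, 7 had an entry in that table, and HILPDA, DGAT1 and DGAT2 did not.

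Lipolysis genes gave the sharpest contrast. PNPLA2 encodes ATGL, which takes a fatty acid off triglyceride, and spans chr11:818914-825573 (plus strand). Its signal was 738, 911 and 892 on day 3 and 2222, 2152 and 1982 on day 5. The lowest day 5 library was far above the highest of day 3, with a log2 difference of 1.33 (standard error 0.11, adjusted p = 0.000326 from limma). With its sign counted, so that falls rank lowest, this difference was larger than that of 94.7% of all tested genes.

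ABHD5, also known as CGI-58, binds ATGL and activates it. The gene spans chr3:43690108-43734371 (plus strand). Its signal was 786, 914 and 1026 in the day 3 libraries and 448, 386 and 353 in the day 5 libraries. All day 5 libraries were lower, and the 2 ranges were well apart. The log2 difference was -1.20 (standard error 0.14, adjusted p = 0.000842 from limma), and only 4.22% of the tested genes had a smaller value, that is, a deeper fall.

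Within a library, ABHD5 signal was 1.06, 1.00 and 1.15 times that of PNPLA2 on day 3 and 0.202, 0.180 and 0.179 times on day 5. The genes were thus near parity in reads in every day 3 library and far from it in every day 5 library. These reads are not corrected for length, and ABHD5 has 7539 bases of exon against 3831 for PNPLA2. In reads per kilobase of exon, scaled to library depth, the day 3 means were 3.34 for ABHD5 and 6.14 for PNPLA2. By that measure the genes were not at parity on day 3. The ratio of the signals was 5.75-fold lower on day 5 (two-sided exact permutation test, p = 0.1, the smallest possible, adjusted p = 0.167 over the 5 ratios). Leaving out each library in turn moved the log2 difference of the ratio between -2.58 and -2.47. Protein levels and lipase activity were not measured here.

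The promoters of this pair are shown because the enzyme and its activator moved in opposite directions, with capitals as for the coat genes.
PNPLA2, chr11:818664-818963, plus strand: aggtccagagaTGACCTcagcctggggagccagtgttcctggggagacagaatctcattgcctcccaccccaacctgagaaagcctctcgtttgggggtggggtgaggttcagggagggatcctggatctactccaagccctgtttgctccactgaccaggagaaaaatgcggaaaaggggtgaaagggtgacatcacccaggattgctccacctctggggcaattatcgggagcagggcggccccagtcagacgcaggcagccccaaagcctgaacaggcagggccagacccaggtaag
ABHD5, chr3:43690620-43690919, plus strand: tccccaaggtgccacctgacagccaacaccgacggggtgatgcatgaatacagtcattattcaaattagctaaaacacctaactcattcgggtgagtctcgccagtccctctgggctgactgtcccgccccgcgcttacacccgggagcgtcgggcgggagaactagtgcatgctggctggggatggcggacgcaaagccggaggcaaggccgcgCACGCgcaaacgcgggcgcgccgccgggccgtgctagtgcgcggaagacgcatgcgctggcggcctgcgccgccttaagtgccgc
The PNPLA2 window held 1 match to AGGTCA, on the opposite strand as TGACCT, and no match to ACGTG or GCGTG. For ABHD5 the table lists 3 starts whose windows overlap; the window printed is the most upstream and held 1 match to the HIF core and none to AGGTCA. A window without a match says nothing about sites elsewhere in the gene.

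HILPDA is a short protein of the droplet surface that inhibits ATGL, and its gene spans 2570 bases (chr7:128455849-128458418, plus strand). HILPDA signal was 453, 420 and 506 on day 3 and 904, 1190 and 1124 on day 5. The days were separate, with the widest spread among the day 5 libraries. On the log2 scale the difference was 1.21 (standard error 0.13, adjusted p = 0.000721 from limma). An annotated transcript on the same strand, HILPDA-AS1, overlaps the gene, and it did not exceed 2.14 in any library.

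The rise of HILPDA was of about the same size as that of its target PNPLA2. HILPDA signal was 0.614, 0.462 and 0.568 of PNPLA2 signal on day 3 and 0.407, 0.553 and 0.567 on day 5. The ranges overlapped, and the log2 ratio differed by -0.11 (two-sided exact permutation test, p = 0.5, adjusted p = 0.5 over the 5 ratios). Without day 5 replicate 1, which had the lowest ratio, the difference was 0.041, so its direction rests on that library. All 10 genes of a list of textbook hypoxia-induced genes were also higher, against 29.3% of all tested genes. Their median log2 difference was 2.68. That list was chosen with earlier results of these data known, so its count is not independent of them. The HILPDA difference lay near the low end of the list's range. That range went from 1.10 for LDHA, a glycolytic enzyme named here as the lowest after its value was seen, to 6.31 for CA9. CA9 is a carbonic anhydrase whose signal was at most 4.25 on day 3 and at least 178 on day 5. Whether hypoxia had a part in the HILPDA change was not tested.

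**Figure D2:**
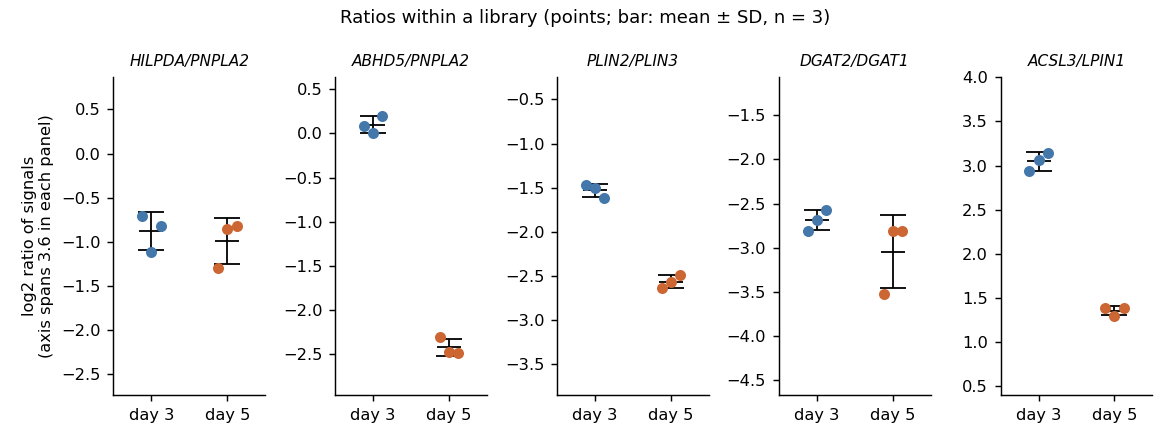
Log2 ratio of the signals of 5 gene pairs within each library, with points for libraries and bars for the mean and SD of 3; each axis spans the same length on the log2 scale. ABHD5/PNPLA2, PLIN2/PLIN3 and ACSL3/LPIN1 are separate between the days, and HILPDA/PNPLA2 and DGAT2/DGAT1 overlap.

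Of the 4 synthesis genes among the 9, LPIN1 and DGAT1 rose, ACSL3 fell and DGAT2 did not pass. Lipin 1 removes the phosphate of phosphatidate to give diacylglycerol, the direct precursor of triglyceride, and its gene spans chr2:11677595-11827409 (plus strand). Its signal was 983, 946 and 842 on day 3 and 2366, 2675 and 2181 on day 5. All day 5 libraries were far above any of day 3. The log2 difference was 1.38 (standard error 0.11, adjusted p = 0.0003 from limma). With its sign counted, it was larger than that of 95.3% of the tested genes. The other lipin genes, LPIN2 and LPIN3, were higher as well, by log2 differences of 0.81 and 1.39 (limma, adjusted p = 0.000782 and 0.000274); LPIN2 was singled out after its values were seen. The direction of all 3 lipin genes was the same with each library divided by its own total.

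DGAT1 and DGAT2 add the last fatty acid to diacylglycerol. They catalyze the same reaction but are unrelated in sequence. DGAT1 signal was 761, 721 and 817 on day 3 and 1132, 1002 and 1058 on day 5. The days did not overlap, although the change was modest, with a log2 difference of 0.47 (standard error 0.09, adjusted p = 0.0053 from limma). An unnamed transcript that overlaps DGAT1 on the same strand had values between 17.6 and 40.1.

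DGAT2 was the weakest of the 9 genes. It spans chr11:75759512-75801535 (plus strand), and its signal was 108, 111 and 136 on day 3 and 97.6, 143 and 150 on day 5. The days overlapped, and the day 5 libraries held both the lowest and the highest value. The log2 difference was 0.12 (standard error 0.19, adjusted p = 0.627 from limma), with a 95% interval of the fold from 0.783 to 1.50. DGAT2 signal was 0.143, 0.155 and 0.168 of that of DGAT1 on day 3 and 0.087, 0.143 and 0.143 on day 5. The ranges of this ratio overlapped narrowly (two-sided exact permutation test, p = 0.2, adjusted p = 0.25 over the 5 ratios). The log2 ratio differed by -0.356, and by -0.118 without day 5 replicate 1, which had the lowest ratio.

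ACSL3 is the acyl-CoA synthetase that gathers on forming droplets and supplies them with activated fatty acid. The gene spans chr2:222860942-222944639 (plus strand). Its signal, which is not corrected for gene length, was the highest of the 9 on both days. The day 3 libraries were at 7523, 7939 and 7424 and the day 5 libraries at 6204, 6570 and 5695. The days did not overlap, but the gap was narrow. The log2 difference was -0.31 (standard error 0.09, adjusted p = 0.0231 from limma). This call was lost with each library divided by its own total (limma, adjusted p = 0.0995), without the filter on low values (0.116), and without day 3 replicate 2 (0.081), day 5 replicate 1 (0.0629) or day 5 replicate 3 (0.0729). The ratio to LPIN1 was 7.64, 8.38 and 8.81 on day 3 and 2.62, 2.46 and 2.61 on day 5, which did not overlap (two-sided exact permutation test, p = 0.1, the smallest possible, adjusted p = 0.167 over the 5 ratios).

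**Figure D3:**
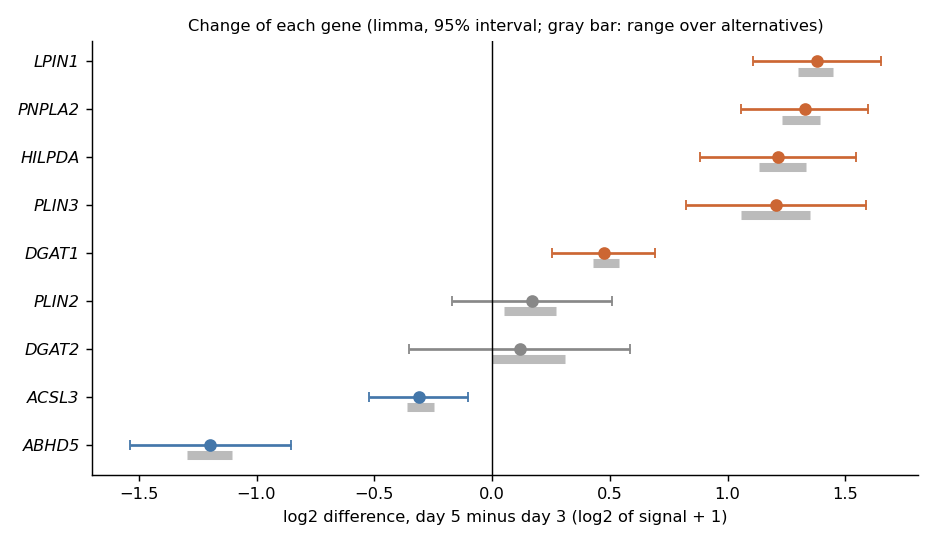
Log2 difference of each gene, day 5 minus day 3, from limma, with its 95% interval; orange genes were higher, blue lower, and gray did not pass. Gray bars under the points give the range over 13 alternatives, which for ACSL3 went from -0.36 to -0.24 and for LPIN1 from 1.30 to 1.45.

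Without overlap between the libraries of the days were 7 of the 9 genes, the same 7 that passed, against 65.0% of all tested genes. Between genes, levels were compared as RPKM, that is, recovered reads per kilobase of exon scaled to the depth of the library. On day 3 the order was PLIN3 at 24.1 ± 3.25 (SD, n = 3), ACSL3 at 14.7 ± 1.34, HILPDA at 6.17 ± 0.334, PNPLA2 at 6.14 ± 0.576, DGAT1 at 5.16 ± 0.229, PLIN2 at 4.55 ± 0.423, ABHD5 at 3.34 ± 0.239, LPIN1 at 2.18 ± 0.319 and DGAT2 at 0.415 ± 0.023. HILPDA and PNPLA2 were the only neighbors in this order whose day 3 libraries overlapped. On day 5, PLIN3 was at 57.9 ± 1.33 (SD, n = 3), followed by PNPLA2 at 16.1 ± 1.14, HILPDA at 15.1 ± 2.07, ACSL3 at 12.4 ± 1.04, DGAT1 at 7.51 ± 0.480, LPIN1 at 5.92 ± 0.678, PLIN2 at 5.36 ± 0.406, ABHD5 at 1.53 ± 0.202 and DGAT2 at 0.479 ± 0.101. PNPLA2 and HILPDA overlapped, as did HILPDA and ACSL3, and LPIN1 and PLIN2. The order depends on the length used: with the length of the canonical transcript, chosen after seeing the data, ACSL3 was highest on day 3 at 38.2 against 29.6 for PLIN3, and on day 5 PLIN3 was highest at 71.1, followed by ACSL3 at 32.2 and PNPLA2 at 25.6.

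Further genes of the pathway moved in both directions, and their counts are to be read against the 29.3% of all tested genes that passed as higher and the 27.6% that passed as lower. Of 18 other coat and assembly genes, 14 were tested, 4 were higher and 2 lower, with a median log2 difference of 0.17. Of the 4 higher calls, 3 were lost in at least 1 of the 13 alternatives (LDAF1 in 7, BSCL2 in 5 and PLIN4 in 2), and both lower calls were kept in all. FITM2, which helps droplets bud from the endoplasmic reticulum, was 1.54-fold higher (limma, adjusted p = 0.00649) and PLIN4, a further coat gene, 1.49-fold higher (limma, adjusted p = 0.0184). RAB18, a small GTPase found on droplets, was 1.67-fold lower (limma, adjusted p = 0.000654) and HSD17B11 1.59-fold lower (limma, adjusted p = 0.00087).

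Of 18 other genes of glycerolipid and sterol ester synthesis, 15 were tested, 7 were higher and 5 lower, with a median log2 difference of 0.36; 1 call in each direction was lost in an alternative. AGPAT4, an acyltransferase, was 3.20-fold higher (limma, adjusted p = 0.000146). GK, the glycerol kinase, was 2.41-fold lower (limma, adjusted p = 0.000524) and GPAM, a mitochondrial glycerol-3-phosphate acyltransferase, 2.00-fold lower (limma, adjusted p = 0.000343). Of 10 other lipolysis genes, 9 were tested, with 3 higher and 3 lower. The 3 higher calls were kept in all 13 alternatives, and each lower call was lost in at least 1, that of LIPA in 9 of them. PNPLA3, the closest relative of PNPLA2, and MGLL, the lipase of monoglycerides, were each higher, with log2 differences of 1.06 (limma, adjusted p = 0.00199 and 0.00261), and PNPLA4 and ABHD6 were lower, with log2 differences of -0.49 and -0.47 (limma, adjusted p = 0.0105 and 0.0134).

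Of 12 genes of de novo fatty acid synthesis, 11 were in the table and tested, 8 were higher and 3 did not pass, with a median log2 difference of 0.38. Of these 8 calls, 5 (ACACB, SCD5, ELOVL1, FADS1 and FADS2, named after their values were seen) were lost in at least 1 alternative. FASN, the fatty acid synthase, was 4.05-fold higher (limma, adjusted p = 0.000291) and SCD, which makes oleate, 3.83-fold higher (limma, adjusted p = 0.000326).

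**Figure D4:**
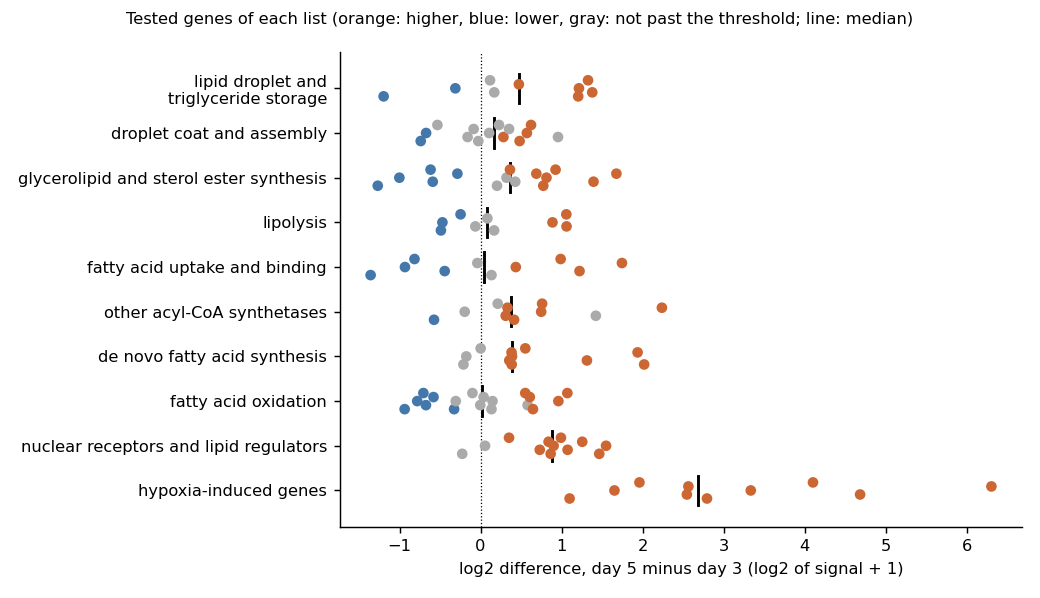
Log2 difference, day 5 minus day 3, of the tested genes of each list, with 1 point per gene and a line at the list's median; orange and blue passed the test as higher and lower, and gray did not. The droplet and triglyceride storage genes spread from -1.20 to 1.38, and all 10 hypoxia-induced genes lie to the right of 0. The lists were chosen with earlier results of these data known.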

How the data were processed

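Whole transcriptome libraries were made from HCT116 RNA after ribosomal RNA depletion, with molecular identifiers in the adapters. Mapping was strand-specific, against hg38 genes in CLC Genomics Workbench, after quality control with FastQC 0.11.8 and MultiQC 1.7, as the authors' methods state. The methods name TMM as the normalization for differential expression. It was not established here whether the deposited values were scaled that way. Whether reads in introns were counted is not given in the sources used here. The deposited values are a normalized signal per gene and library; 100% were whole multiples (within 0.01) of the value of 1 read, so whole reads were recovered. The table also lists the authors' fold changes and p-values, which were not used, and neither were the day 7 and small RNA data.

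Of 38055 genes, 20129 reached a signal of 10 in 3 or more of the 6 libraries and were tested with limma 3.58.1 (R 4.3.3) on log2(signal + 1), a scale that understates changes of weak genes. Ratios of genes, with 1 added to each signal, were tested by exact permutation over libraries, and 5 could be formed. The genes and lists were chosen with earlier results of these data known. Named genes were the 10 examined and, from each list, the top 2 risers and the top 2 fallers that passed and did not overlap between days; 1 of these is not reported here. Alternatives were library totals, no filter, a pseudocount of 0.1, a replicate block, edgeR 4.0.16 and DESeq2 1.42.0 on recovered reads, an intensity trend, a 2-fold minimum and leaving out each library. Tested on simulated data with 200 of 19749 genes changed 2-fold, limma called 156 (78%) with 8 false calls. In the real data 56.9% of tested genes passed, a far larger share than was changed there, so these rates may not carry over. Lengths and loci came from GENCODE release 44, and tables were handled with pandas 2.3.3 in Python 3.11.15.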

Additional observations from a re-analysis of the deposited data

How the results depend on the processing

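The 5 genes called higher and ABHD5 kept their direction and their side of the threshold in all 13 alternatives fitted (library totals, no filter, pseudocount 0.1, replicate block, edgeR, DESeq2, intensity trend and leaving out each of 6 libraries), and PLIN2 and DGAT2 passed in none. The number of genes called lower went from 2 to 1 on library totals and without a filter, where ACSL3 was lost, and with a 2-fold minimum, where ACSL3 was excluded by size; leaving out single libraries gave 1 or 2. A 2-fold minimum left 4 of the 5 higher genes and reduced the calls among all genes to 3589, with 2059 higher and 1530 lower. Leaving out libraries moved the HILPDA/PNPLA2 log2 ratio difference between -0.23 and 0.041. Same-numbered libraries of the days did not deviate together (correlations from -0.011 to 0.034). With only 3 libraries a day, these correlations cannot decide whether the numbers pair the libraries, and the labels do not say. With the replicate block, 10533 genes passed and the 9 genes gave 5 higher and 2 lower. With 3 libraries a day, a ratio cannot reach an exact p under 0.1. Whether replicates came from separate seedings is not stated beyond the label, and p-values measure the spread between these libraries.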

Other observations

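Genes of fatty acid uptake and binding moved in both directions. Of 15 uptake and binding genes, 10 were tested, 4 were higher and 4 lower, and 1 call in each direction was lost in an alternative. Among all tested genes, 29.3% passed as higher and 27.6% as lower. SLC27A1, a fatty acid transporter, was 2.33-fold higher on day 5 (limma, adjusted p = 0.000341). FABP5, a fatty acid-binding protein, was 2.56-fold lower (limma, adjusted p = 0.000236) and FABP6 1.91-fold lower (limma, adjusted p = 0.00203). Among 11 other acyl-CoA synthetase genes, 10 were tested, 6 were higher and 1 lower, and the calls of ACSL1 and ACSF3 among the higher ones were lost in 7 and 4 of the 13 alternatives. ACSS2, which activates acetate, was 4.72-fold higher (limma, adjusted p = 0.000172), ACSL6 was 1.69-fold higher from a low signal (limma, adjusted p = 0.00179), and ACSM3 was 1.49-fold lower (limma, adjusted p = 0.00289).

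Fatty acid oxidation genes split, with 5 higher and 6 lower of 18 tested and a median log2 difference of 0.017, and 1 call in each direction was lost in an alternative. CPT1A, which admits long-chain fatty acids to mitochondria, was 1.95-fold higher (limma, adjusted p = 0.0026) and ACADVL, the very-long-chain acyl-CoA dehydrogenase, 2.10-fold higher (limma, adjusted p = 0.000234). ACADM, the medium-chain enzyme, was 1.72-fold lower (limma, adjusted p = 0.000884) and ECI2 1.91-fold lower (limma, adjusted p = 0.000748). Of 14 nuclear receptor and lipid regulator genes, 12 were tested, 10 were higher and 2 did not pass, with a median log2 difference of 0.88; the call of NR1H3 was lost in 6 alternatives. PPARD, a receptor for fatty acids, was 2.93-fold higher (limma, adjusted p = 0.000211) and SREBF2, a regulator of sterol synthesis, 2.76-fold higher (limma, adjusted p = 0.000297). Among the hypoxia-induced genes, NDRG1 went from a mean signal of 1283 to 33006 (limma, adjusted p = 5.60e-05).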
